A study of Arabidopsis thaliana with 21 samples.

Results

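The question addressed was whether the early red light response of the transcriptome depends on the C-terminal end of phytochrome B (phyB). The members are the 12 RNA-seq libraries of a pair of *phyB-GFP* lines, out of 21 libraries in the series, chosen by their labels as the libraries that carry the interaction of line and light. *phyB-GFP ΔC* expresses a phyB-GFP fusion without the last 80 residues of phyB, the end through which phyB contacts SPA1, and *phyB-GFP FL* expresses the full-length fusion. The paper also reports that the ΔC fusion formed no nuclear photobodies and gave more signal in the cytoplasm than the FL fusion. Each line was sampled after 1 h of red light and in darkness, with 3 libraries in each of the 4 groups. Both lines carry *phyA-211* and *phyB-9* in the Col-0 background, so neither line has functional phyA or endogenous phyB, and every response described here was measured without phyA. The seedlings were 3 days old and dark-grown, had received a far-red light treatment (10 µmol m-2 s-1) before the dark period, and were then kept dark or given red light. The labels give 8 µmol m-2 s-1 for the red light, and the study's methods give a lower fluence rate. The sources do not name the promoter that drives the transgene, nor which of the independent transformants of each construct was sequenced, so each genotype may stand for 1 transformant and insertion site, and the line and the deletion cannot be told apart. Nothing in the labels says that replicates were separate cultures, so p-values measure the spread between these libraries.

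Phytochromes are photoreceptors that red light converts to the active Pfr form, which moves into the nucleus. There Pfr acts along a pair of routes. It binds the PIF transcription factors, bHLH proteins that hold the seedling in its dark-grown form, and triggers their removal. It also restrains the COP1/SPA ubiquitin ligase, which in darkness removes factors that promote greening, such as HY5. The C-terminal module of phyB carries the dimerization and nuclear accumulation functions of the receptor, and its last stretch lies in the histidine kinase-related region.

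The stretch missing from the ΔC protein is shown as its coding DNA because it is the difference in design between the lines. It comprises codons 1093 to 1172 of the 1172 codons of *PHYB* (AT2G18790), lies in the last of 4 coding exons at chr2:8143909-8144148 on the plus strand, and was read from RefSeq TAIR10.1, 5′ to 3′.
PHYB codons absent from ΔC: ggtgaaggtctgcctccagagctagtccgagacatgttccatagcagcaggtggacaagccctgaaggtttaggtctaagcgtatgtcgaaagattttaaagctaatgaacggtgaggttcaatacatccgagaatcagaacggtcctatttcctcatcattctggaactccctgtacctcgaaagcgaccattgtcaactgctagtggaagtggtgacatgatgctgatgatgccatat
The counts were made per gene and do not separate this stretch, so they cannot check the deletion. *PHYB* was counted at 1373, 1328 and 1251 counts scaled to a common library size (CPM) in ΔC red light libraries and at 1250.0, 1340.0 and 1361 CPM in ΔC dark libraries, against 1283, 1390.0 and 928 CPM in FL red light libraries and 1437, 1236 and 1560.0 CPM in FL dark libraries. The lines overlapped in *PHYB* level in both light conditions, and these values sum the transgene and the *phyB-9* transcript. The FL red light library of replicate 3 had the lowest value of the 12.

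The promoters of 5 of the genes with a called interaction are printed next, as the sequence context of genes that the results turn on. The first 4 are the called genes whose window holds a G-box, the core element bound by PIFs and by HY5, and the last is the gene with the lowest interaction rank. Each window runs from 250 bases before to 50 bases after the annotated start, 5′ to 3′ in the direction of transcription, from RefSeq TAIR10.1. Capitals mark matches to the G-box (CACGTG), the PBE-box bound by PIFs (CACATG or CATGTG) and the light-associated GATAAG element (GATAAG or CTTATC), searched on both strands. The windows lie at chr3:8085620-8085919 (minus strand) for *ELIP1*, chr1:37822-38121 (minus strand) for *LHY*, chr3:3923265-3923564 (plus strand) for *LNK3*, chr5:17526410-17526709 (plus strand) for *TZP* and chr5:17755719-17756018 (minus strand) for *ABCI21*.
ELIP1: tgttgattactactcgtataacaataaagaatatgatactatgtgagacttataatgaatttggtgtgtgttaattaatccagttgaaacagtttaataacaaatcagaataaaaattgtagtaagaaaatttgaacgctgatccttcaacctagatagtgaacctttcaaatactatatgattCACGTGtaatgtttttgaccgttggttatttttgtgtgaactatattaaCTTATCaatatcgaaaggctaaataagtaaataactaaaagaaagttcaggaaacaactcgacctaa
LHY: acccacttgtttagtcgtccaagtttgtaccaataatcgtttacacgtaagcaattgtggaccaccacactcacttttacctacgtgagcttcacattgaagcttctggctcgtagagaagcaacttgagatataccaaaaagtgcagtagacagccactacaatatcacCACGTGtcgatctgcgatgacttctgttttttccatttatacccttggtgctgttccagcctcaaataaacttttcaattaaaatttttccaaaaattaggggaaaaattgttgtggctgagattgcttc
LNK3: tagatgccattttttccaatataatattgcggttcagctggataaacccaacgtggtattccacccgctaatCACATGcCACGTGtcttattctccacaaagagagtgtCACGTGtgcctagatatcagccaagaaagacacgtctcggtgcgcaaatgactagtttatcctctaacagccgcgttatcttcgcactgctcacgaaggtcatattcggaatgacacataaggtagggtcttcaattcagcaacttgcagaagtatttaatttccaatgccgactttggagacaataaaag
TZP: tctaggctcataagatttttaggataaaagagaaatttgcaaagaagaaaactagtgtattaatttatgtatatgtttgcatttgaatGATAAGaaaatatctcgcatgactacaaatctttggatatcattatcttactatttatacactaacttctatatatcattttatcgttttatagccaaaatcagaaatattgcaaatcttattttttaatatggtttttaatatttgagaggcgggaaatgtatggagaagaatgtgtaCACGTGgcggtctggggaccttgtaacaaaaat
ABCI21: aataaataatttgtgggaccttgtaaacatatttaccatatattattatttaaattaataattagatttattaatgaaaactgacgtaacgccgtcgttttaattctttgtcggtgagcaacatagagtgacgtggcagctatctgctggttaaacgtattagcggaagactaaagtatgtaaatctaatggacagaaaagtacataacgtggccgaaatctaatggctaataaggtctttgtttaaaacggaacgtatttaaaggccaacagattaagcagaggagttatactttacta
A G-box occurred in 4 of 21 promoters of called genes (19%), beside 8.81% of the 20437 tested genes with a window. The PBE-box occurred in 3 of 21 (14.3%), beside 13% of all, and GATAAG in 5 of 21 (23.8%), beside 14.9% of all. In *TZP* the G-box lies after the annotated start. These matches are descriptions of letters in a short window and were not tested.

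The 12 libraries held between 15678019 and 29523833 counts, and 20459 genes passed the filter on low counts. The biological coefficient of variation was 7.28% in ΔC red light libraries, 6.97% in ΔC dark libraries, 13.2% in FL red light libraries and 9.18% in FL dark libraries. The FL red light library of replicate 3 stood apart from the other replicates of its group, with chi-square values per gene of 19.1 and 30.1 against them, where the other FL red pair had 4.45. It held higher counts of photosynthesis genes, and all 21 genes called in the interaction remained called without it. The etiolated-seedling gene *PIL1*, which phytochrome switches off rapidly, showed the treatment in every library. *PIL1* was at 4.39, 4.12 and 4.85 CPM in ΔC red light libraries and 78.2, 74.6 and 86.0 CPM in ΔC dark libraries, and at 3.47, 3.74 and 3.00 CPM in FL red light libraries and 62.6, 76.7 and 71.5 CPM in FL dark libraries. In bulk seedlings, fewer cells of a type and less RNA per cell cannot be told apart.

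In ΔC, a set of light-induced genes was induced less than in FL. They included *SPA1* and *SPA3* of the COP1/SPA complex, the clock genes *LHY*, *LNK3* and *ELF4*, a pair of related ATP-binding cassette proteins and the early greening genes *ELIP1*, *SIG5* and *LHCB1.1*. The interaction is the difference of both responses, the red minus dark change (log2) of ΔC less the one of FL, so a negative value means a less positive response in ΔC. At an adjusted p under 0.05, 21 of 20459 genes (0.103%) had a negative interaction and 0 had a positive one. At an unadjusted p under 0.05 there were 640 negative genes (3.13%) and 285 positive genes (1.39%), together 925 (4.52%). This total is below the share of 0.05 that such a limit passes when no gene differs. An unadjusted p under 0.05 is therefore no call for a single gene. Without FL red replicate 3, 27 genes were called negative and 1 positive, and 558 negative and 368 positive genes had an unadjusted p under 0.05. The called number depended on single libraries. It was 6 without FL dark replicate 1, 6 without FL dark replicate 3, 8 without ΔC red replicate 2, 9 without ΔC red replicate 1, 13 without ΔC red replicate 3, 10, 9 and 11 without ΔC dark replicates 1, 2 and 3, 15 without FL dark replicate 2, 14 without FL red replicate 1 and 38 without FL red replicate 2. All 21 genes had a negative interaction in each of the 21 alternatives run, and *ABCI21*, *ABCI20*, *SPA1*, *SIG5*, AT5G15950 and *RPT2* were called in each of them, whereas each of the others lost its call in between 2 and 11 of them.

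**Figure D1:**
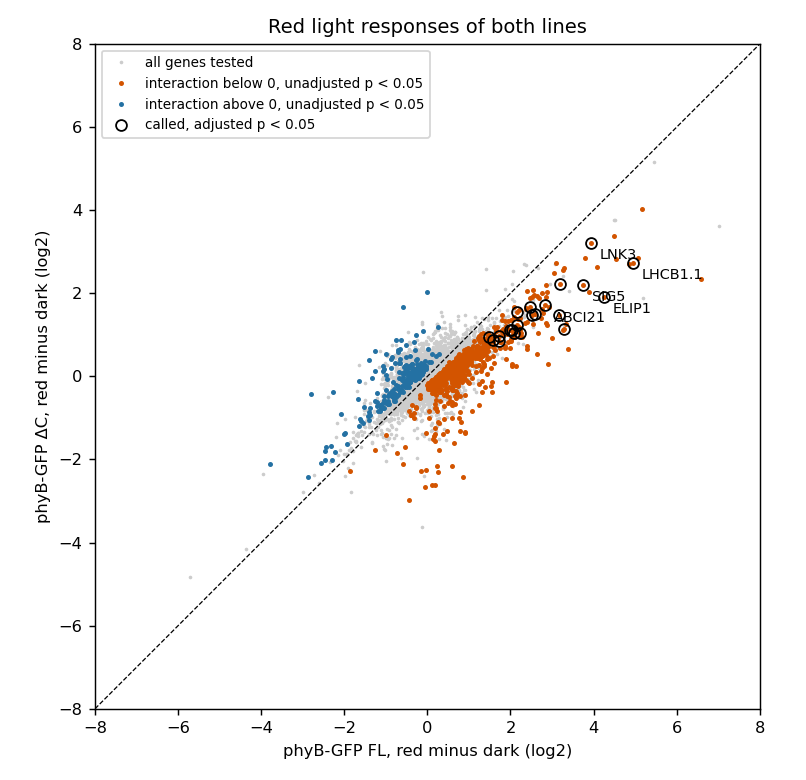
Red minus dark change (log2) of each of 20459 genes in phyB-GFP FL (horizontal axis) and phyB-GFP ΔC (vertical axis), with the line of equal response dashed. Orange and blue points have an unadjusted interaction p under 0.05 below and above 0 (640 and 285 genes), and the 21 circled genes, called at an adjusted p under 0.05, all lie to the right of the dashed line among genes that rose in both lines.

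Among genes called in both lines, the response to red light was mostly smaller in ΔC and kept its direction. At an adjusted p under 0.05 and over 1.5-fold, 325 genes rose (1.59%) and 265 fell (1.3%) in ΔC, and 671 rose (3.28%) and 352 fell (1.72%) in FL. No gene was called as risen in one line and as fallen in the other. Below these limits the sign could differ. Of the genes with an unadjusted interaction p under 0.05, 420 of 640 negative and 125 of 285 positive ones had the same sign in both lines. Over all genes tested it was 12995 of 20459. Of the 294 genes that rose in both lines, 262 (89.1%) had the smaller change in ΔC, with a median change of 0.95 in ΔC and 1.42 in FL (log2) and a median ratio of 71.9%. Of the 216 genes that fell in both lines, 158 (73.1%) had the smaller change in ΔC, with a median change of -0.91 in ΔC and -1.07 in FL and a median ratio of 88.3%. Without FL red replicate 3 the median ratios were 74.2% for 316 genes that rose and 85.2% for 215 genes that fell. Of 267 genes with a mean change of both lines over 1 (log2), 90.6% had the smaller change in ΔC (medians 1.12 in ΔC and 1.77 in FL). Of 161 genes with a mean change under -1, 63.4% did so (medians -1.38 and -1.39). Without FL red replicate 3 these shares were 88.2% of 262 and 69.1% of 181 genes. The smaller response was thus clearer for genes that rose. The unadjusted p was under 0.05 for 150 of the 294 risen genes in the negative direction and for 40 of the 216 fallen genes in the positive direction. All 21 called genes rose in both lines, and their change in ΔC was between 34.8% and 81.6% of that in FL (median 56.7%). These genes were chosen by their interaction, so their smaller change in ΔC follows from the choice and is no further evidence.

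The 2 genes with the lowest ranks encode closely related proteins. *ABCI21* and *ABCI20* encode non-intrinsic ATP-binding cassette proteins, which lack membrane domains of their own. *ABCI21* had 61.3, 63.3 and 60.9 CPM in ΔC red light libraries and 19.5, 18.7 and 18.5 CPM in ΔC dark libraries, against 131, 124 and 144 CPM in FL red light libraries and 16.6, 19.3 and 20.0 CPM in FL dark libraries. Its promoter, printed above, holds none of the 3 elements. The dark libraries of the lines overlapped, and every ΔC red light library was below every FL one. The response was 1.71 ± 0.08 in ΔC and 2.83 ± 0.08 in FL (log2 ± SE), with an interaction of -1.13 ± 0.11 (adjusted p = 0.00226). *ABCI20* had 59.0, 55.4 and 56.2 CPM in ΔC red light libraries and 20.4, 20.0 and 20.1 CPM in ΔC dark libraries, against 102.3, 107 and 126 CPM in FL red light libraries and 18.17, 20.6 and 17.3 CPM in FL dark libraries. It showed the same pattern, with an interaction of -1.09 ± 0.12 (adjusted p = 0.00388). *ABCI19*, a relative of both, had an interaction of -0.05 ± 0.18 and rose in neither line.

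Genes of the COP1/SPA complex were among the genes with a reduced response. *SPA1*, the SPA family member that contacts the deleted end of phyB, had 124, 136 and 141 CPM in ΔC red light libraries and 39.6, 43.1 and 42.7 CPM in ΔC dark libraries, against 178, 175 and 176 CPM in FL red light libraries and 31.9, 32.2 and 31.7 CPM in FL dark libraries. The ΔC libraries were all below the FL libraries in red light and all above them in darkness. The interaction was -0.79 ± 0.09 (adjusted p = 0.00388). *SPA3* had 67.9, 74.5 and 80.3 CPM in ΔC red light libraries and 34.4, 36.8 and 32.4 CPM in ΔC dark libraries, against 102.4, 92.4 and 118 CPM in FL red light libraries and 26.2, 27.0 and 24.9 CPM in FL dark libraries, with an interaction of -0.89 ± 0.13 (adjusted p = 0.0186). It shared the crossing of the lines between darkness and red light. The COP1/SPA and DET1 list held 11 genes, among them the WD40 repressors *RUP1* and *RUP2*, which are not subunits of these complexes. In the list, 2 genes were called, 6 had a negative interaction with an unadjusted p under 0.05 and 0 a positive one. *RUP1* and *RUP2* were both among the 6. The median interaction of the 11 was -0.23, beside -0.0043 over all genes, and no median was taken without *RUP1* and *RUP2*. The list's median percentile rank was 1.61 (50 over all genes) and 1.35 without FL red replicate 3. *SPA4* (-0.46 ± 0.12), *RUP2* (-1.26 ± 0.24) and *COP1*, the ubiquitin ligase itself (-0.23 ± 0.09), had unadjusted p-values under 0.05 with adjusted p-values of 0.312, 0.0774 and 0.928. *SPA2* (0.07 ± 0.13), *CUL4* (0.05 ± 0.08) and *DDB1A* (0.09 ± 0.12), the scaffold and adaptor of the ligase, rose in neither line.

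The list of phytochrome partners and photobody factors, which also holds *RPT2* of phototropin signalling, gave 3 more calls. *RPT2*, an NPH3-family protein of phototropin signalling, had 276, 278 and 295 CPM in ΔC red light libraries and 61.5, 64.8 and 55.4 CPM in ΔC dark libraries, against 392.3, 428 and 469 CPM in FL red light libraries and 44.9, 51.7 and 45.6 CPM in FL dark libraries (interaction -0.96 ± 0.12, adjusted p = 0.00741). *PKS1*, a phytochrome-binding substrate, had 79.8, 74.3 and 79.0 CPM in ΔC red light libraries and 24.9, 26.5 and 28.6 CPM in ΔC dark libraries, against 113, 108 and 108 CPM in FL red light libraries and 22.7, 24.4 and 26.5 CPM in FL dark libraries (interaction -0.61 ± 0.10, adjusted p = 0.0446). Both were lower in ΔC in red light without overlap. *TZP*, a zinc-finger protein of phytochrome nuclear bodies, had 52.2, 56.0 and 58.5 CPM in ΔC red light libraries and 18.5, 22.2 and 19.2 CPM in ΔC dark libraries, against 61.3, 59.3 and 70.4 CPM in FL red light libraries and 9.91, 12.5 and 10.8 CPM in FL dark libraries (interaction -1.04 ± 0.14, adjusted p = 0.012). Its dark level was higher in ΔC (0.85, adjusted p = 0.000943). Across the 14 tested phytochrome partners and photobody factors the median interaction was -0.03 (median percentile 41.2), close to the middle of the ranking. In this list 4 genes, the 3 called ones among them, had a negative interaction at an unadjusted p under 0.05 and 1 a positive one. *FHY1*, the phyA import factor, fell by 1.13 in ΔC and by 1.54 in FL and had an interaction of 0.42 ± 0.13 (adjusted p = 0.582).

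Morning-phased clock genes had the lowest median rank of the lists with more than 3 genes. Of 12 members, 10 rose in ΔC and 10 in FL, 2 had a called interaction, 9 had a negative interaction at an unadjusted p under 0.05, and all 12 had a negative estimate. The median interaction was -0.61 (median percentile 0.27), and -0.51 (0.28) without FL red replicate 3. *LHY*, a MYB repressor at the core of the clock, had 186, 201 and 213 CPM in ΔC red light libraries and 91.4, 102 and 85.7 CPM in ΔC dark libraries, against 193, 182 and 229 CPM in FL red light libraries and 47.4, 50.9 and 49.2 CPM in FL dark libraries. The lines overlapped in red light, and the ΔC dark libraries were all above the FL dark libraries. The interaction was -0.93 ± 0.13 (adjusted p = 0.016). *LNK3*, a member of the LNK family of clock coactivators, had 58.2, 57.2 and 61.7 CPM in ΔC red light libraries and 6.13, 6.35 and 6.71 CPM in ΔC dark libraries, against 87.5, 81.6 and 87.5 CPM in FL red light libraries and 5.75, 5.20 and 5.94 CPM in FL dark libraries. Here the lines differed mainly after red light (interaction -0.72 ± 0.11, adjusted p = 0.0186). *LNK1* (-0.67 ± 0.12, adjusted p = 0.0649), *RVE1* (-0.61 ± 0.12, adjusted p = 0.115) and *CCA1* (-0.60 ± 0.13, adjusted p = 0.148) did not pass. *LNK4* had a response of 2.60 in ΔC and 2.67 in FL, but its ΔC libraries were all below the FL libraries in both light conditions. Its mean level was 50.4 CPM in ΔC and 73.7 CPM in FL in red light, and 8.30 and 11.6 CPM in darkness.

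Evening and pseudo-response regulator genes were less uniform. Of 16 members, 1 was called, 7 had a negative interaction at an unadjusted p under 0.05 and 0 a positive one, and the median interaction was -0.15 (median percentile 20.4, and 23.3 without FL red replicate 3). The called gene was *ELF4*, a subunit of the evening complex, with 9.74, 9.45 and 9.37 CPM in ΔC red light libraries and 4.82, 3.63 and 5.45 CPM in ΔC dark libraries, against 20.2, 20.0 and 23.2 CPM in FL red light libraries and 3.95, 5.02 and 4.50 CPM in FL dark libraries. The dark libraries overlapped, and the interaction was -1.19 ± 0.19 (adjusted p = 0.043). *GI* (-0.61 ± 0.13, adjusted p = 0.148) and *PRR7* (-0.43 ± 0.10, adjusted p = 0.19) did not pass, although the ΔC red light libraries were all below the FL ones for both. *CDF2* rose by 1.09 in ΔC and by 1.15 in FL.

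HY5 and the greening regulators had low ranks, and the call of *HY5* depended on single libraries. Of 6 members, 4 rose in ΔC and 5 in FL, 0 were called in the interaction, and 5 had a negative interaction at an unadjusted p under 0.05, with a median of -0.85 (median percentile 0.47) and of -0.70 (0.34) without FL red replicate 3. *HY5*, the bZIP factor that COP1/SPA removes in darkness, ranked 22 and had 74.2, 75.5 and 72.9 CPM in ΔC red light libraries and 29.5, 29.7 and 25.1 CPM in ΔC dark libraries, against 120.3, 115 and 147 CPM in FL red light libraries and 25, 30.4 and 26.1 CPM in FL dark libraries. Its red light libraries did not overlap between the lines, and its dark libraries did (interaction -0.83 ± 0.14, adjusted p = 0.0559). It passed in 10 of the 21 alternatives, one of them without FL red replicate 3 (-0.71 ± 0.12, adjusted p = 0.0313). *GLK2*, an activator of photosynthesis genes, had an interaction of -0.87 ± 0.18 (adjusted p = 0.138). The B-box genes, zinc-finger partners of HY5 and COP1, split. Of 20 tested, 9 had a negative and 2 a positive interaction at an unadjusted p under 0.05, with a median of -0.48 (median percentile 9.84, and 8.61 without FL red replicate 3). *BBX32* had the most negative estimate (-4.24 ± 0.79, adjusted p = 0.0773), but its FL dark libraries, at 0.154, 0 and 0.0577 CPM, were close to the lower limit of counting. *BBX19* (-0.75 ± 0.14, adjusted p = 0.0773), *BBX29* (-1.13 ± 0.26, adjusted p = 0.221) and *BBX24* (-0.54 ± 0.14, adjusted p = 0.311) were also toward the negative end. *BBX23* (0.75 ± 0.21, adjusted p = 0.488) and *BBX21* (0.22 ± 0.09, adjusted p = 0.99) were at the other, both of them genes with a lower level in red light than in darkness in each line.

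**Figure D2:**
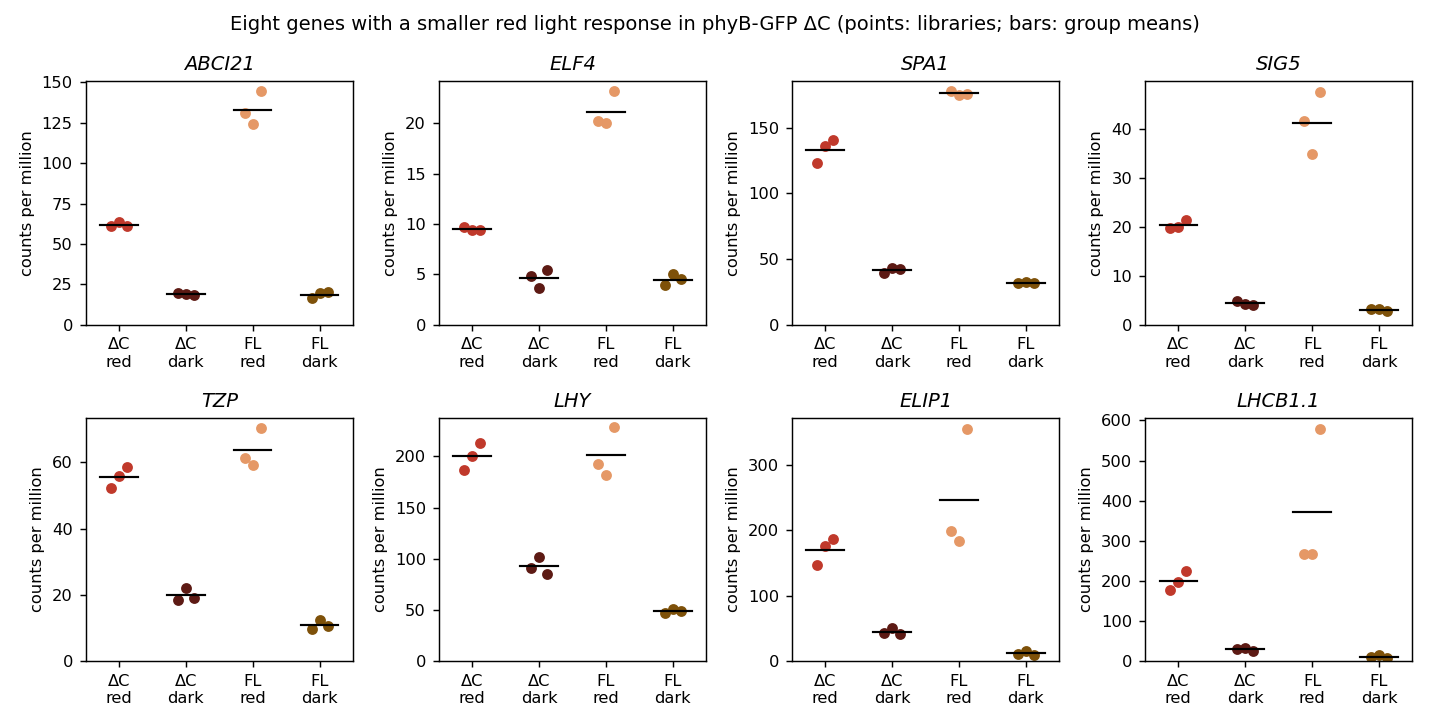
CPM (linear axes from 0) of 8 called genes in each library, with bars at group means, for phyB-GFP ΔC in red light and darkness and then phyB-GFP FL in red light and darkness. ABCI21 and ELF4 differ between lines after red light alone, whereas LHY differs in darkness and overlaps in red light, and the highest point of ELIP1 and LHCB1.1 (354 and 578 CPM) is FL red replicate 3.

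A smaller response can come from a lower level in red light, from a higher level in darkness, or from both, and the called genes covered this range. The ΔC red light libraries were all below the FL red light libraries for 19 of 21 genes, where 10.8% of all genes tested did so and 10.3% were all above, and the ΔC dark libraries were all above the FL dark libraries for 14 of 21, where 10.5% of all genes did so. Since all 4 groups enter the interaction, these counts describe the called genes and are no separate evidence. The share of the interaction that lay in the dark difference ran from 2.02% to 99.2% (median 34.8%). It was under 25% for 5 genes, among them *ABCI21* (2.02%), *ELF4* (2.76%) and *ABCI20* (10.13%). It was over 50% for 5 genes, which were *LHY* (99.2%), *TZP* (81.3%), *ELIP1* (77.3%), AT2G46420 (64.6%) and *LHCB1.1* (59.6%). In the test of the lines in darkness, 120 genes were higher (0.587%) and 123 lower (0.601%) in ΔC at an adjusted p under 0.05 and over 1.5-fold. Among the higher ones were 4 of the 21 called genes: *ELIP1*, *TZP*, *LHY* and *LHCB1.1*. The same dark libraries enter the interaction, so this overlap is no separate evidence either. The 243 calls in darkness became 101 without ΔC dark replicate 2, 130 without ΔC dark replicate 3 and 110 without FL dark replicate 3. *SPA1* was between these ends, with 49.1% of its interaction in darkness.

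**Figure D3:**
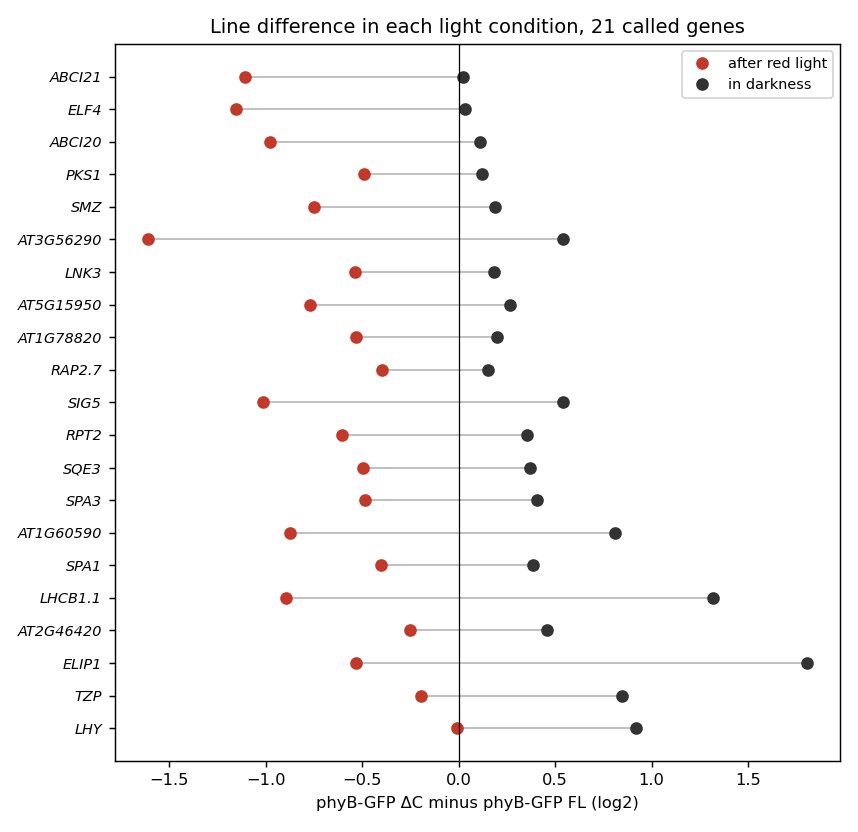
Difference in level, phyB-GFP ΔC over phyB-GFP FL (log2), in darkness (black) and after red light (red) for the 21 called genes, ordered by the share of the interaction that lies in darkness (smallest at the top). The length of each grey line is the interaction, and LHY, at the bottom, has a dark difference of 0.92 and a red difference of -0.01.

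Plastid-directed genes with a called interaction included the largest changes. *ELIP1*, an early light-induced protein that protects thylakoids, had 148, 176 and 186 CPM in ΔC red light libraries and 42.5, 50.4 and 42.5 CPM in ΔC dark libraries, against 199, 184 and 354 CPM in FL red light libraries and 11.96, 16.1 and 10.4 CPM in FL dark libraries. The ΔC dark libraries were all above the FL dark libraries, and the red light libraries overlapped. The interaction was -2.34 ± 0.31 (adjusted p = 0.0111), and -1.97 ± 0.18 without FL red replicate 3 (adjusted p = 0.00056). *ELIP2*, its homologue, had an interaction of -2.08 ± 0.36 (adjusted p = 0.0559), and of -1.61 ± 0.20 without FL red replicate 3 (adjusted p = 0.00276), and passed in 10 of the 21 alternatives. *SIG5*, a nuclear-encoded sigma factor that directs plastid transcription, had 19.8, 20.1 and 21.5 CPM in ΔC red light libraries and 4.93, 4.33 and 4.11 CPM in ΔC dark libraries, against 41.6, 34.9 and 47.6 CPM in FL red light libraries and 3.29, 3.17 and 2.71 CPM in FL dark libraries. Its interaction was -1.56 ± 0.18 (adjusted p = 0.00388), and it was the only one of 6 sigma factor genes with an unadjusted p under 0.05. *LHCB1.1*, encoding a light-harvesting protein of photosystem II, had 177, 197 and 226 CPM in ΔC red light libraries and 31.2, 32.4 and 26.5 CPM in ΔC dark libraries, against 268, 267 and 578 CPM in FL red light libraries and 11.2, 15.1 and 9.64 CPM in FL dark libraries. The lines did not overlap in either condition (interaction -2.21 ± 0.37, adjusted p = 0.0459, and -1.73 ± 0.19, adjusted p = 0.00167, without FL red replicate 3). *LHCB1.1* has near-identical neighbours, so reads could be split among them, and *LHCB1.3*, the most abundant, had an interaction of -0.20 ± 0.30.

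The remaining called genes belong to other functions. AT5G15950, an S-adenosylmethionine decarboxylase of polyamine synthesis, had 67.4, 72.6 and 71.3 CPM in ΔC red light libraries and 35.5, 36.3 and 30.1 CPM in ΔC dark libraries, against 122, 109.5 and 129 CPM in FL red light libraries and 27.3, 30.6 and 26.7 CPM in FL dark libraries (interaction -1.04 ± 0.12, adjusted p = 0.00388). *SQE3*, a squalene epoxidase of sterol synthesis, had an interaction of -0.87 ± 0.13 (adjusted p = 0.0186). *SMZ* and *RAP2.7*, AP2-type repressors of flowering, had 18.21, 20.5 and 23.6 CPM and 161, 166 and 170.2 CPM in ΔC red light libraries, against 35.6, 32.7 and 36.7 CPM and 217, 205 and 232 CPM in FL red light libraries. Their interactions were -0.94 ± 0.15 (adjusted p = 0.0362) and -0.55 ± 0.09 (adjusted p = 0.0423). The others were AT1G78820, annotated as a mannose-binding lectin (-0.73 ± 0.12, adjusted p = 0.0423), AT1G60590, a pectin lyase-like protein (-1.68 ± 0.28, adjusted p = 0.0459), AT2G46420, annotated as a helicase with a zinc finger (-0.71 ± 0.12, adjusted p = 0.0497), and AT3G56290, annotated as a potassium transporter (-2.15 ± 0.37, adjusted p = 0.0497). For AT3G56290 the FL red light values were 18.21, 20.5 and 37.2 CPM, the highest again in replicate 3, and the interaction was -1.76 ± 0.21 without it (adjusted p = 0.00276).

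Other genes ranked just behind the called ones. *MAPKKK14*, a mitogen-activated protein kinase kinase kinase, had 36.5, 37.8 and 37.0 CPM in ΔC red light libraries, all below the FL red light libraries with 61.3, 61.2 and 77.7 CPM. Its interaction was -0.72 ± 0.13 (adjusted p = 0.0649), and -0.59 ± 0.09 without FL red replicate 3 (adjusted p = 0.0181). *CRY3*, a cryptochrome-family flavoprotein, had an interaction of -1.10 ± 0.20 (adjusted p = 0.0649), and of -0.92 ± 0.16 without that library (adjusted p = 0.0369). AT3G23170 (-0.70 ± 0.13, adjusted p = 0.0649), *UGT84A2*, a UDP-glycosyltransferase (-0.64 ± 0.12, adjusted p = 0.0659), and *CSLG3*, a cellulose synthase-like gene (-0.67 ± 0.12, adjusted p = 0.0773), did not pass in either case.

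No gene passed at the positive end with all 12 libraries, so the functions there are given by rank. The highest-ranked gene was AT2G32430, annotated as a galactosyltransferase, with 37.4, 44.0 and 44.4 CPM in ΔC red light libraries and 66.3, 61.6 and 61.8 CPM in ΔC dark libraries, against 24.4, 22.2 and 24.6 CPM in FL red light libraries and 53.7, 62.4 and 54.3 CPM in FL dark libraries (interaction 0.67 ± 0.12, adjusted p = 0.0588). It passed in 7 of the 21 alternatives, one of them without FL red replicate 3 (0.70 ± 0.12, adjusted p = 0.0489). Its red light libraries did not overlap between the lines, and its dark libraries did. AT4G11610, a C2-domain phosphoribosyltransferase-family gene, followed with 0.62 ± 0.12 (adjusted p = 0.115) and passed in 2 alternatives. *HAT3*, an HD-ZIP II factor of shade avoidance, had 16.8, 16.9 and 19.9 CPM in ΔC red light libraries and 35.0, 35.6 and 38.4 CPM in ΔC dark libraries, against 13.0, 13.0 and 13.5 CPM in FL red light libraries and 38.9, 45.5 and 37.6 CPM in FL dark libraries. It fell in both lines, and the interaction of 0.60 ± 0.13 did not pass (adjusted p = 0.148), although it did in 3 alternatives. The other high ranks were AT4G29700, annotated as an alkaline phosphatase-like protein (0.41 ± 0.08, adjusted p = 0.117), AT3G07930, a DNA glycosylase-family gene (0.68 ± 0.14, adjusted p = 0.148), AT5G38460, an ALG6/ALG8-family glycosyltransferase (0.44 ± 0.10, adjusted p = 0.235), AT1G09575, a calcium uniporter-like gene (0.47 ± 0.11, adjusted p = 0.276), and *CBSX5*, encoding a CBS domain protein (0.51 ± 0.12, adjusted p = 0.279).

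The HD-ZIP II and shade-induced list and the ethylene and hook list ranked toward the positive end, with small differences. Of 13 HD-ZIP II and shade-induced genes, 6 fell in ΔC and 6 in FL, 12 had a positive estimate, and 3 had a positive interaction at an unadjusted p under 0.05 and 0 a negative one. The median interaction was 0.22 (median percentile 94.4), and 0.26 (93.1) without FL red replicate 3. *XTH15*, a cell wall enzyme, fell by 1.63 in ΔC and by 1.94 in FL, and *HB-2*, the founding HD-ZIP II gene, fell by 2.78 in ΔC and by 3.00 in FL. Their interactions were 0.30 ± 0.11 (adjusted p = 0.907) and 0.22 ± 0.12 (adjusted p = 0.999). *PIL1*, the most strongly lowered gene named here, fell by 4.16 in ΔC and by 4.37 in FL (interaction 0.21 ± 0.16, adjusted p = 0.999). Of 13 ethylene and apical hook genes, 5 fell in ΔC and 5 in FL, and the median interaction was 0.15 (median percentile 87.8, and 84.1 without FL red replicate 3). *HLS1*, needed for the hook of dark-grown seedlings, fell by 1.19 in ΔC and by 1.66 in FL (interaction 0.46 ± 0.19, adjusted p = 0.999), and *ACS8*, an ethylene synthesis gene, had an interaction of 0.79 ± 0.21 (adjusted p = 0.359). *PHYA*, whose transcript phytochrome lowers, had 42.7, 44.4 and 48.0 CPM in ΔC red light libraries and 74.4, 77.7 and 78.4 CPM in ΔC dark libraries, against 36.1, 37.3 and 32.3 CPM in FL red light libraries and 73.7, 75.1 and 78.7 CPM in FL dark libraries. Both lines fell, and the red light libraries did not overlap (interaction 0.34 ± 0.10, adjusted p = 0.521). These *PHYA* counts are of the *phyA-211* allele, which both lines carry. The transcript of *PIF1*, the target of SPA1 studied with these lines, had an interaction of 0.01 ± 0.09. The paper's result for PIF1 concerns phosphorylation and degradation of the protein, which transcript counts do not measure. The PIF and HLH list as a whole had a median of -0.02 (median percentile 41.3).

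**Figure D4:**
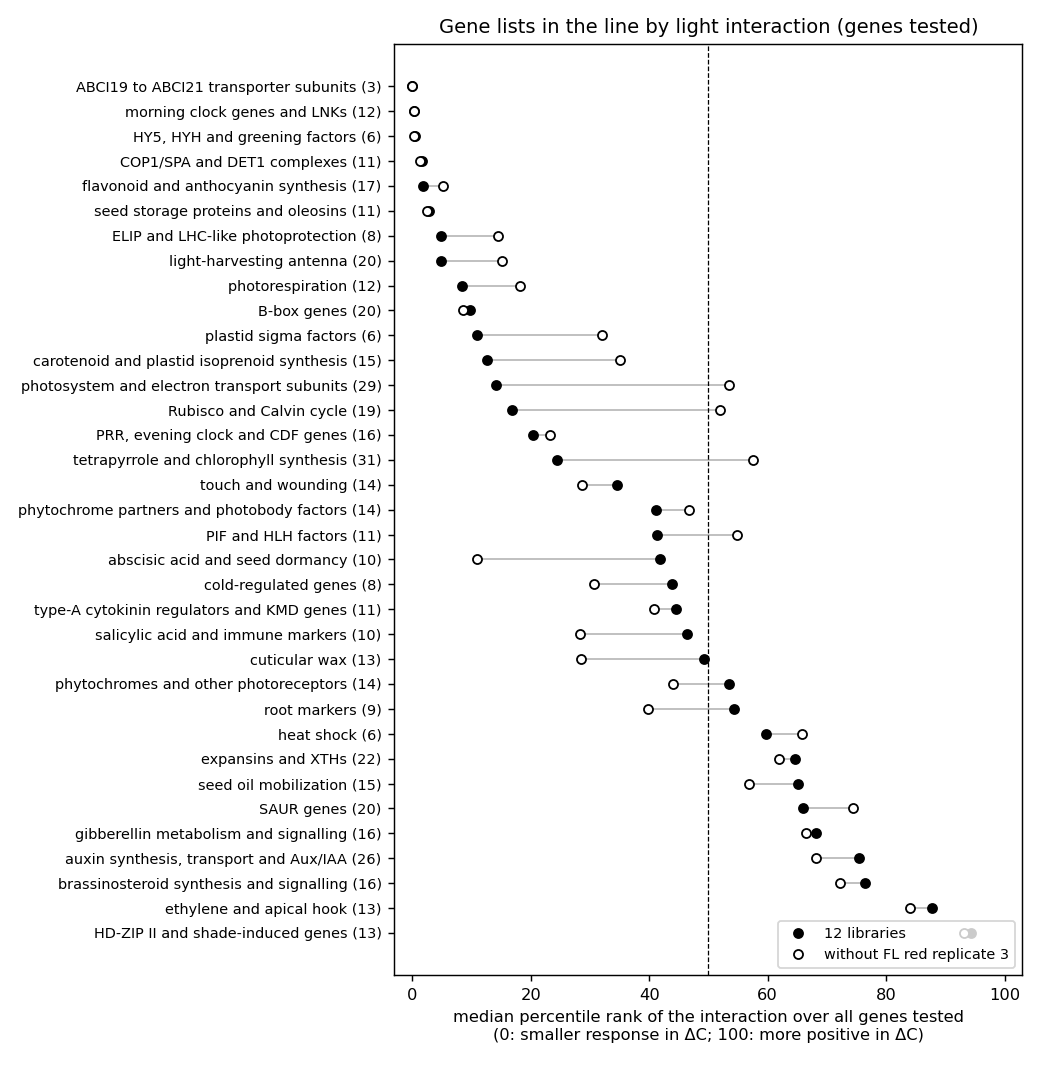
Median percentile rank of each of 35 gene lists in the interaction over all genes tested, from all 12 libraries (filled) and without FL red replicate 3 (open), with the number of tested genes in brackets and the middle of the ranking dashed at 50. The morning clock, HY5, COP1/SPA, ABCI, flavonoid, seed storage and HD-ZIP II lists stay near the ends in both, whereas the photosystem list moves to 53.5, next to the middle.

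Photosystem genes ranked low with all 12 libraries and near the middle without FL red replicate 3. All 29 genes for photosystem and electron transport subunits had a negative estimate, with a median of -0.32 (median percentile 14.1), although 0 of them had an unadjusted p under 0.05. Without FL red replicate 3 the median was 0.01 (53.5). The list's median level, with each gene centred on its mean over the 12 libraries (log2), was -0.06, 0.13 and 0.29 in ΔC red light libraries, against -0.08, -0.23 and 0.68 in FL red light libraries, the last being replicate 3. The Rubisco and Calvin cycle list had a median of -0.23 (16.9), and 0.01 (52) without that library, and the tetrapyrrole and chlorophyll list had -0.15 (24.4), and 0.03 (57.6) without it. Of the light-harvesting antenna genes, 20 of 20 were negative with a median of -0.52 (4.85), and the median was -0.20 (15.1) without the library. In that list 8 genes rose in ΔC and 13 in FL.

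Flavonoid genes also ranked low, with a large part of the difference in darkness. Of 17 tested, 5 rose in ΔC and 11 in FL, 6 were higher in ΔC in darkness (4 with the replicate number as a block) and 0 lower, and 9 had a negative interaction at an unadjusted p under 0.05. The median interaction was -0.73 (1.89), and -0.48 (5.14) without FL red replicate 3. *TT4*, the chalcone synthase gene that opens the pathway, had 121, 136 and 146 CPM in ΔC red light libraries and 97.1, 101 and 88.3 CPM in ΔC dark libraries, against 69.6, 68.5 and 106 CPM in FL red light libraries and 33.0, 36.3 and 28.2 CPM in FL dark libraries. ΔC was higher than FL without overlap in both conditions, and the gap was wider in darkness (1.55, adjusted p = 0.000124). The interaction was -0.83 ± 0.21 (adjusted p = 0.313). *PAL1* and *PAL2*, which feed the general phenylpropanoid pathway, had interactions of 0.17 ± 0.19 and 0.19 ± 0.14.

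**Figure D5:**
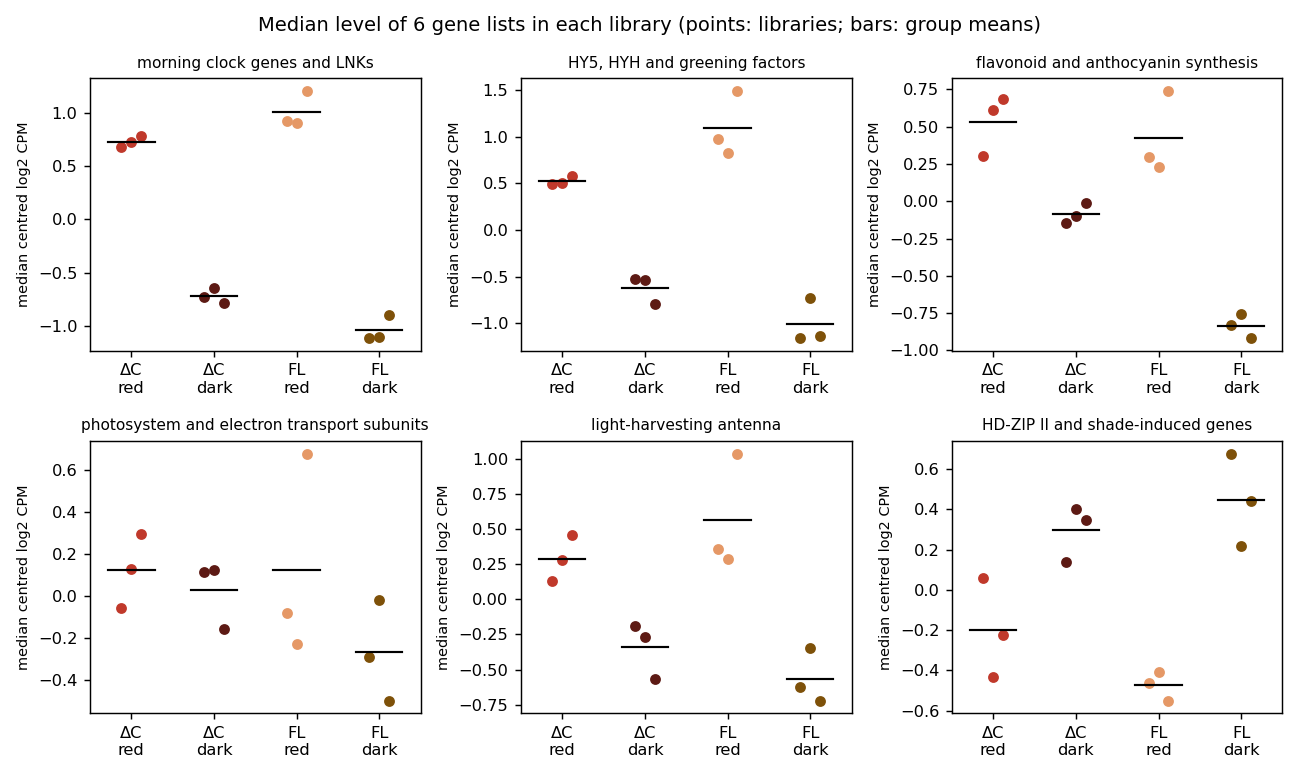
Median over the genes of 6 lists of the centred log2 CPM in each library (vertical axes, log2, each gene centred on its mean over the 12 libraries), with bars at group means, in the order phyB-GFP ΔC red, ΔC dark, FL red, FL dark. The photosystem list separates FL red replicate 3 (0.68) from the other FL red libraries (-0.08 and -0.23), whereas the 3 FL red libraries of the morning clock list lie between 0.91 and 1.21.

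Seed reserve transcripts differed between libraries within groups. The summed level of 11 seed storage protein and oleosin genes was 83.9, 61.9 and 5.78 CPM in ΔC red light libraries and 485, 121 and 121 CPM in ΔC dark libraries, against 314, 931 and 694 CPM in FL red light libraries and 759, 378 and 730 CPM in FL dark libraries. The ΔC red light libraries were the lowest 3 of the 12. The median interaction of the list was -2.05 (median percentile 2.89), with 6 genes at an unadjusted p under 0.05 and 0 called. *CRA1*, a cruciferin, had an interaction of -2.80 ± 1.16 (adjusted p = 0.999). Their sums were lower in ΔC than in FL in red light without overlap, and in ΔC lower in red light than in darkness, whereas the light conditions overlapped in FL. The part of these levels in the other results was not tested. Root markers had a median percentile of 54.3, heat shock genes 59.8, and touch and wounding genes 34.6. The summed root marker level was 176 to 211 CPM in ΔC red light libraries and 187 to 208 CPM in ΔC dark libraries, against 183 to 227 CPM in FL red light libraries and 202 to 244 CPM in FL dark libraries. Salicylic acid and immune markers summed to 154 to 169 CPM in ΔC red light libraries and 144 to 180.2 CPM in ΔC dark libraries, against 104 to 118 CPM in FL red light libraries and 86.1 to 97.3 CPM in FL dark libraries, a line difference present in both light conditions, and their median percentile in the interaction was 46.4.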

How the data were processed

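RNA was measured by sequencing, and the deposited table holds raw read counts per gene for 21 libraries. Per the labels and the study's methods, the authors aligned reads to TAIR10 with TopHat and Bowtie2 and counted them with HTSeq-count. The strand setting is not given in the sources used here, so counts of genes that overlap on opposite strands are uncertain. Counts of near-identical genes are uncertain apart from that setting. Of 33655 features, 32548 were matched to loci of the RefSeq annotation, and 20459 passed edgeR's filterByExpr in the 12 libraries used. Counts were normalized by TMM and fitted with edgeR 4.0.16 (R 4.3.3) as 4 group means. The interaction, each line's response and the dark line difference were tested in that fit (glmQLFTest), and p-values were adjusted by Benjamini-Hochberg across the 20459 genes. The interaction was called at an adjusted p under 0.05, and the other contrasts also needed a change over 1.5-fold. SE is the estimate over its signed statistic. Percentile ranks order the signed statistic over all genes. Levels are TMM-scaled CPM, and a count of 0 allows up to 3 counts (0.101 to 0.191 CPM by library). Genes named are all those called, the 8 highest and 8 lowest other ranks among genes averaging 3 or more log2 CPM, *PHYB*, *PHYA*, *SPA1*, *PIF1* and *PIL1*, and some of the extreme members of 35 gene lists (517 genes, 493 tested, the other 24 with at most 22 counts). Further list members were named after their values were seen. The comparison, lists and genes were chosen with earlier results of these data known. The lists were described by counts and medians, with no set test. Scripts were tested on simulated data. Alternatives were DESeq2 1.42.0, limma-voom (limma 3.58.1), other factors and filters, a robust fit, a replicate block, all 21 libraries in one fit and leaving out each library. The same-numbered libraries of ΔC dark and FL dark deviated together (correlations 0.304, 0.102 and 0.42), so the replicate number paired the dark line difference by the limit of 0.1 used, and the labels give no further basis for it. No other pair of groups had all 3 correlations above 0.1. No 2 libraries of a group agreed within sampling noise (lowest chi-square per gene 3.56).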

Additional observations from a re-analysis of the deposited data

Results flagged for a closer look

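The difference between the lines in their response to red light passed the interaction test (edgeR, adjusted p under 0.05) for 21 genes, each with a less positive response in ΔC than in FL. The interactions (log2, ΔC minus FL) were -2.34 for *ELIP1*, -2.21 for *LHCB1.1*, -2.15 for AT3G56290, -1.68 for AT1G60590, -1.56 for *SIG5*, -1.19 for *ELF4*, -1.13 for *ABCI21*, -1.09 for *ABCI20*, -1.04 for *TZP* and -1.04 for AT5G15950. They were -0.96 for *RPT2*, -0.94 for *SMZ*, -0.93 for *LHY*, -0.89 for *SPA3*, -0.87 for *SQE3*, -0.79 for *SPA1*, -0.73 for AT1G78820, -0.72 for *LNK3*, -0.71 for AT2G46420, -0.61 for *PKS1* and -0.55 for *RAP2.7*. Groups of 3 libraries are too small for a test of single outlying libraries.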

How the results depend on the processing

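The number of genes with a called interaction was 21 as reported, 80 with DESeq2 (76 negative), 59 with limma-voom and quality weights (53 negative), 32 when every gene with at least 1 count was kept (31 negative), 105 in one fit of all 21 libraries (100 negative) and between 6 and 38 when 1 library was left out. The dark line difference was called for 243 genes as reported, 407 in one fit of all 21 libraries, 371 with limma-voom, 384 without the fold limit and between 101 and 350 when 1 library was left out. Without the fold limit, the red light response was called for 1055 genes in ΔC and 1824 in FL. Over the 4 groups of the interaction the replicate numbers did not pair the samples, since 5 of 18 correlations between same-numbered deviations were above 0.1 and they ran from -0.677 to 0.427. The dark groups alone were paired, and the block gave 189 dark line differences, 179 of them among the 243. The dark calls of *ELIP1*, *TZP*, *LHY*, *LHCB1.1* and *TT4* were kept with it, and those of *UGT78D2* and *UGT78D1* were lost (adjusted p = 0.0607 and 0.075). With the replicate number as a block, 9 interactions were called, all among the 21. The estimates of all 21 genes stayed negative with the block, and the reason for the lower number was not tested. The interaction of *PIF1* was 0.01 as reported, -0.0032 in one fit of all 21 libraries and between -0.016 and 0.067 with 1 library left out. Of 861 values of 41 genes under the alternatives, 665 kept their direction and side of the threshold, 127 were no longer past it, 64 were newly past it and 5 changed sign, all for *PIF1*. Of 735 list medians, 713 moved by less than the spread between libraries and 22 by more. That spread includes FL red replicate 3, and a move below it can take away a whole difference. The Rubisco and Calvin cycle median went from -0.23 to 0.01 without that library. The tetrapyrrole and chlorophyll median went from -0.15 to 0.03. Both lists were below the limit in all 21 alternatives, so the 713 are no measure of stable ranks. An interaction that missed the threshold is not shown to be absent.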
